A study of Mus musculus with 2 samples.

Results

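The voltage-gated sodium and calcium channel subunit genes are the protein-coding genes that encode the pores of these channels and the auxiliary proteins bound to them. They were chosen by symbol alone: every protein-coding Ensembl gene named Scn with a number and a or b, or Cacna1, Cacna2d, Cacnb or Cacng with its letter or number. This gave 40 genes, 14 of sodium and 26 of calcium channels, of 21474 protein-coding genes among the 43346 Ensembl genes in the deposited tables. No measured value entered the choice.

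The data were total RNA sequencing of the hindbrain of B6NCrl mouse embryos at embryonic day 13.5, labelled healthy and with no treatment named, with tissue of male and female embryos pooled. There was 1 group of 2 libraries, biological replicate 1 and biological replicate 2, each from an RNA input of 10 ng, limited to molecules over 200 nt and supplemented with spike-in RNA. The design therefore held no comparison between conditions, and the comparisons below run between genes, between transcripts and between replicates. The labels name 1 donor for the pair but a separate biosample for each library, so part of the variation between replicates may be technical.

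A voltage-gated channel opens an ion-selective pore when the membrane depolarises. The large alpha subunit forms the pore and senses voltage, and smaller auxiliary subunits set how many channels reach the surface and how quickly they open and close. Sodium channels carry the upstroke of the action potential. Calcium channels turn depolarisation into calcium entry, which drives transmitter release, growth and gene expression. In rodent brain the sodium pore gene Scn3a is known as the embryonic form, and Scn1a, Scn2a and Scn8a as the forms of the mature central nervous system.

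The libraries held 33080194 estimated counts in replicate 1 and 38756411 in replicate 2. All 5 hindbrain markers examined were detected, from Egr2 at 3.20 TPM to Hoxb5 at 168 TPM, and 1 of 5 forebrain markers was, Lhx2 at 18.6 TPM. The 6 markers of postmitotic neurons ranged from Rbfox3 at 44.1 TPM to Tubb3 at 1509 TPM, and the 6 of neural progenitors from Sox2 at 12.9 TPM to Fabp7 at 1915 TPM. Markers of other cells were also present: 4 of 5 of vascular smooth muscle and pericytes, 5 of 5 of oligodendrocyte precursors and 4 of 4 of microglia were detected, with summed levels of 44.8 to 58.1 TPM in replicate 1 and 37.6 to 71.4 TPM in replicate 2. TPM, the share of transcripts assigned to a gene after division by length, can be compared between genes. Each deposited TPM came with an interval whose level is not stated, and the TPM lay outside its own interval in at least 1 library for 5 of the 40 genes: Cacnb3, Cacnb2, Cacna2d4, Cacna1i and Cacna1f.

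Most of the channel genes were present. A gene was called detected at 1 TPM or more in both libraries: 29 of the 40 were, 72.5% of them, against 62.2% of all protein-coding genes. The median channel gene had a mean level of 6.40 TPM, against 5.07 TPM over all protein-coding genes, and 12 of the 40 averaged at least 10 TPM. The summed level of the 40 genes was 545 TPM in replicate 1 and 514 TPM in replicate 2. In whole tissue, fewer cells of a type and less RNA per cell cannot be told apart, and this holds for every level below. No gene of the 40 was listed at 0 in either library.

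Auxiliary subunits led the order of levels. The calcium beta subunit Cacnb3 and the sodium beta subunit Scn3b stood highest, followed by Cacnb1, the embryonic sodium pore Scn3a and the gamma subunit Cacng4. Of the 39 pairs of neighbours in the order, 7 were separate, meaning that their deposited intervals did not overlap in either library and their means differed by more than the sum of their SDs. The other 32 pairs missed at least 1 of these criteria, which does not show that their levels were equal. Cacnb3 and Scn3b were one such pair, and Cacnb1, Scn3a and Cacng4 followed each other without a separation.

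**Figure D1:**
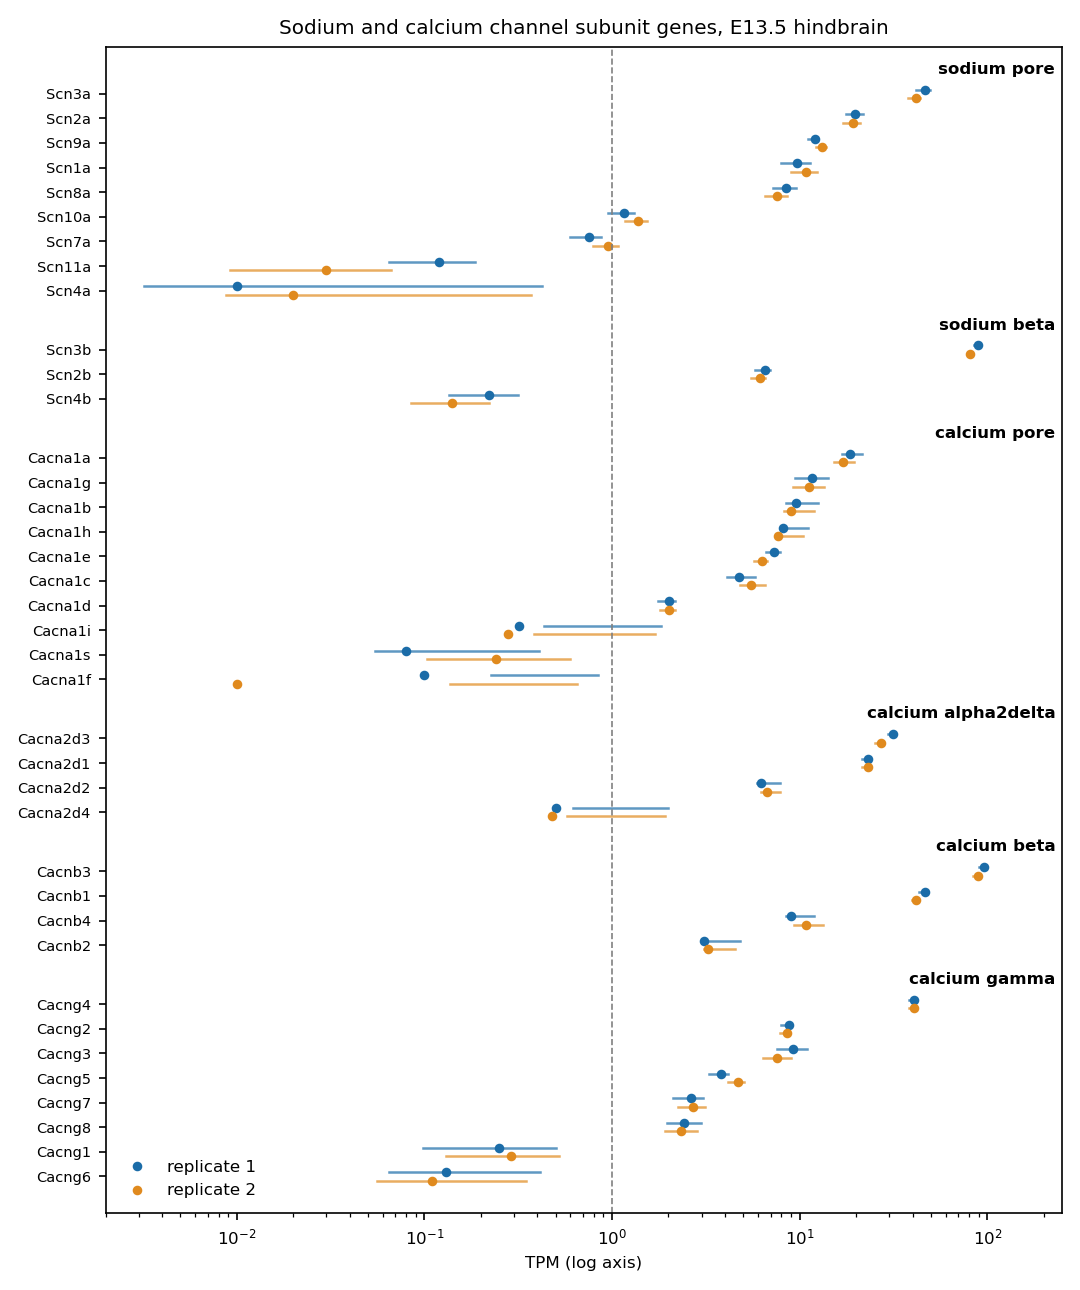
Level of the channel subunit genes described here in TPM on a log axis, by subunit class; points are the deposited values of replicate 1 and replicate 2, lines the deposited intervals, and the dashed line the detection threshold of 1 TPM. Scn3a, Scn3b, Cacna1a, Cacna2d3, Cacnb3 and Cacng4 lead their classes.

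Among the sodium channel pores, the embryonic form had the highest level. Scn3a (ENSMUSG00000057182.10, chr2:65457118-65567627, minus strand, GRCm38) had 46.7 TPM in replicate 1 and 41.7 TPM in replicate 2, from 5754 and 6409 estimated counts. Its deposited interval was 41.9 to 49.4 TPM in replicate 1 and 37.9 to 43.9 TPM in replicate 2. It carried 45.5 ± 2.35% of the summed level of the 10 sodium pore genes (SD, n = 2 libraries).

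The mature forms followed. Scn2a, which in young neurons supplies the axon initial segment, had 19.8 TPM in replicate 1 and 19.2 TPM in replicate 2, with intervals of 17.6 to 21.6 and 17.1 to 20.96 TPM. Scn1a, the main pore of inhibitory interneurons and a gene of human Dravet syndrome, had 9.67 TPM in replicate 1 and 10.8 TPM in replicate 2. Scn8a, the pore of mature nodes of Ranvier, had 8.45 TPM in replicate 1 and 7.58 TPM in replicate 2. Scn3a was thus above each mature form in both libraries, and its intervals overlapped none of theirs.

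The size of that gap was taken within each library as the log2 ratio of TPM + 1, a difference that understates the ratio of low genes. Scn3a over Scn2a was 1.2 in replicate 1 and 1.08 in replicate 2, 1.14 ± 0.09 on average (SD, n = 2 libraries). Scn3a over Scn1a was 2.01 ± 0.22, and Scn3a over Scn8a was 2.32 ± 0.01. As plain ratios of TPM these were 2.26 ± 0.14 over Scn2a, 4.34 ± 0.68 over Scn1a and 5.51 ± 0.02 over Scn8a. Scn1a and Scn8a did not separate from each other, since their intervals overlapped in both libraries. With 2 libraries no test over samples can go below an exact permutation p of 0.5, so these ratios are given with their spread and no p.

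Scn9a, best known from peripheral sensory neurons and human pain disorders, was the third sodium pore by level. It had 12.03 TPM in replicate 1 and 13.1 TPM in replicate 2, below Scn2a by more than the intervals. It did not separate from Scn1a. The other sensory neuron pores were low: Scn10a had 1.16 and 1.38 TPM in replicates 1 and 2, and Scn11a had 0.12 and 0.03 TPM. All 8 of the sensory neuron markers examined were detected, with summed levels of 254 TPM in replicate 1 and 274 TPM in replicate 2, the highest of them Pou4f1 at 67.9 TPM. Several of these markers, such as Isl1, Ntrk2, Ntrk3 and Tlx3, are also expressed by hindbrain neurons. Their part in the levels of Scn9a and Scn10a was not tested.

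Other sodium pores were near the floor of the measurement. Scn7a, an atypical sodium-sensing channel, had 0.75 TPM in replicate 1 and 0.95 TPM in replicate 2, just below the threshold. Scn4a, the skeletal muscle form, had 0.01 and 0.02 TPM in replicates 1 and 2 from 1 and 3 counts. Heart markers summed to 11.0 and 8.21 TPM in replicates 1 and 2 with 3 of 4 detected, from Myh6 at 0.445 TPM to Tnni3 at 3.68 TPM.

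Scn3a, Scn2a, Scn1a, Scn9a and Scn7a lie in a cluster on mouse chromosome 2, between positions 65457118 and 66784914 (GRCm38). Within this cluster the levels ran from 44.2 ± 3.54 TPM for Scn3a to 0.85 ± 0.14 TPM for Scn7a (SD, n = 2). Scn10a and Scn11a are neighbours on chromosome 9, and neither exceeded 1.38 TPM in either library.

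Transcript estimates split Scn8a and Scn9a by a pair of mutually exclusive exons of 92 bases that encode part of the voltage sensor of the first channel domain. In sodium channels of this family the upstream copy is known as the neonatal form and the downstream copy as the adult form.

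Scn8a used both copies about equally in the estimates. The transcript with the upstream exon had 1.86 TPM in replicate 1 and 1.85 TPM in replicate 2, and the one with the downstream exon 2.02 and 1.89 TPM. The upstream share was 48.7 ± 1.08% (SD, n = 2). The intervals of these transcripts overlapped in both libraries, and they also differ in their first exon, so the estimated split may not rest on these exons alone.

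Scn9a was mostly assigned to the upstream copy. Its upstream transcripts summed to 6.22 and 6.40 TPM in replicates 1 and 2, and the downstream transcript had 0.88 and 1.04 TPM. The upstream share was 86.8 ± 1.12% (SD, n = 2), higher than that of Scn8a in both libraries. The leading upstream transcript, Scn9a-202, has 9840 bases and the downstream Scn9a-207 has 7497. The Scn9a split may therefore also not rest on these exons alone. No such exon pair was found for Scn3a or Scn1a among annotated transcripts with the same length in M21. For Scn2a the search could not find one. Its leading transcript, Scn2a-201, has another length in M21, and too few others qualified to form a pair. The search covered annotated exons, so it does not show whether these 3 genes use such a pair in this tissue.

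Of the sodium channel beta subunits, single-pass membrane proteins that modify gating and act in cell adhesion, Scn3b held most of the RNA. Scn3b had 88.9 TPM in replicate 1 and 80.9 TPM in replicate 2, 88.9 ± 0.61% of the summed beta level (SD, n = 2). Scn2b, which is linked to the pore by a disulfide bond, had 6.53 and 6.13 TPM in replicates 1 and 2. Scn4b, linked in the same way, had 0.22 and 0.14 TPM. Scn3b was separate from Scn2b, the next in order.

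In TPM over all transcripts, pore and beta RNA of sodium channels were present in near equal amounts. The pore genes summed to 98.9 and 94.97 TPM in replicates 1 and 2, and the beta genes to 99.5 and 91.4 TPM. The log2 ratio of pore over beta was -0.0092 in replicate 1 and 0.0547 in replicate 2, so its sign differed between the libraries. By estimated counts, which grow with transcript length, the pore genes held 11862 in replicate 1 and 13468 in replicate 2, and the beta genes 7221 and 8018. On full-length coding transcripts alone, described with the transcript data, the log2 ratio was -0.44.

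**Figure D2:**
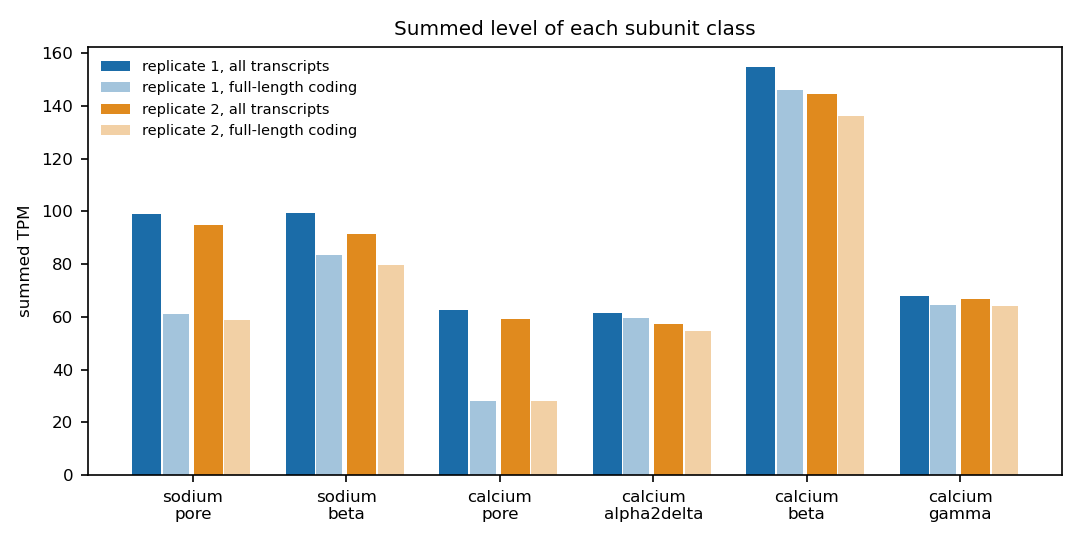
Summed TPM of each subunit class in replicate 1 and replicate 2, for all transcripts (dark bars) and for full-length coding transcripts alone (pale bars). Calcium beta subunits had the highest sum in both libraries, and the calcium pore bars lose the largest share when only full-length coding transcripts are counted.

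Calcium channel pores were led by the presynaptic Cav2 family. Its 3 genes summed to 35.5 and 32.3 TPM in replicates 1 and 2, against 6.95 and 7.78 TPM for the L-type Cav1 genes and 20.2 and 19.2 TPM for the low-voltage-activated Cav3 genes. The log2 ratio of Cav2 over Cav1 was 2.06 ± 0.19, and that of Cav2 over Cav3 was 0.75 ± 0.05 (SD, n = 2). Both ratios were positive in both libraries. On full-length coding transcripts alone, described with the transcript data, they were 1.23 and 0.35.

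Within Cav2, Cacna1a, the P/Q-type pore of presynaptic terminals and Purkinje cells, had 18.6 TPM in replicate 1 and 17.0 TPM in replicate 2. Cacna1b, the N-type pore, had 9.53 and 8.99 TPM, and Cacna1e, the R-type pore, 7.34 and 6.28 TPM. Cacna1a was above both in each library, with intervals that overlapped neither, but only 12.2% of its TPM lay on full-length coding transcripts, as described with the transcript data. Cacna1a shares exonic bases with the opposite-strand gene Gm16183, which had 3.09 TPM in replicate 1 and 1.97 TPM in replicate 2, and whether the counting used strand is not given.

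Within Cav3, the T-type pores, Cacna1g had 11.7 TPM in replicate 1 and 11.2 TPM in replicate 2. Cacna1h had 8.20 and 7.71 TPM, and Cacna1i 0.32 and 0.28 TPM. Cacna1g and Cacna1h had overlapping intervals in both libraries, and Cacna1i was below both.

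Within Cav1, Cacna1c, the main L-type pore of brain and heart, had 4.75 TPM in replicate 1 and 5.51 TPM in replicate 2. Cacna1d, which opens at lower voltages, had 2.02 TPM in each library. Cacna1s, the skeletal muscle pore, had 0.08 and 0.24 TPM from 4 and 9 counts, and Cacna1f, the retinal pore, 0.10 and 0.01 TPM from 9 and 2 counts. The 8 skeletal muscle markers summed to 54.2 and 67.4 TPM in replicates 1 and 2 with 4 detected, from Chrna1 at 0.35 TPM to Actc1 at 39.1 TPM. Their part in the levels of the muscle channel genes was not tested.

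Cacna1c has a pair of exclusive exons of 104 bases that encode a pore-lining segment of the first domain, the site of human Timothy syndrome changes. They are shown because the gene's transcripts divided between them; capitals mark bases that differ within the pair, and the sequences run 5′ to 3′ along the transcript, from GENCODE M21 transcripts on GRCm38.
Cacna1c upstream exon, chr6:118742265-118742368, minus strand: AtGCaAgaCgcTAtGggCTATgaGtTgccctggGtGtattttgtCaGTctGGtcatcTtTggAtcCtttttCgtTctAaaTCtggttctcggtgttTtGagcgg
Cacna1c downstream exon, chr6:118741871-118741974, minus strand: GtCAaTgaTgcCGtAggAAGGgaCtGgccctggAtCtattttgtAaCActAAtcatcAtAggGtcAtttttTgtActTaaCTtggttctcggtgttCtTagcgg
The copies differ at 32 of 104 bases. Transcripts with the upstream exon summed to 1.5 and 1.73 TPM in replicates 1 and 2, and those with the downstream exon to 1.26 and 1.33 TPM. The upstream share was 55.4 ± 1.55% (SD, n = 2), so both forms were assigned RNA. The leading transcripts of the forms, Cacna1c-207 and Cacna1c-216, also differ in length, with 13162 and 7338 bases. The estimated split may therefore not rest on these exons alone.

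RNA of the auxiliary gene classes of calcium channels, gamma genes included, exceeded pore RNA several-fold. The 10 pore genes summed to 62.6 and 59.3 TPM in replicates 1 and 2, against 284 and 269 TPM for the 16 auxiliary genes. The log2 ratio of pore over auxiliary was -2.16 in each library (SD 0.0017, n = 2). The beta class alone summed to 155 and 145 TPM in replicates 1 and 2, and the gamma class to 67.9 and 66.8 TPM. Of the gamma sum, 67.5 and 66.4 TPM came from 6 genes whose products carry AMPA-type glutamate receptors, described below. The auxiliary sum and its ratio to the pores include them. The alpha2delta class summed to 61.5 and 57.2 TPM.

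The alpha2delta subunits, extracellular proteins that bring channels to the surface, were led by Cacna2d3 per length. It had 31.6 TPM in replicate 1 and 27.0 TPM in replicate 2. Cacna2d1, a target of gabapentin, had 23.2 and 23.0 TPM, and Cacna2d2, the gene of the ducky mouse, 6.23 and 6.72 TPM. Cacna2d4, known from photoreceptors, had 0.50 and 0.48 TPM. All 3 neighbouring pairs were separate, and the log2 ratio of Cacna2d1 over Cacna2d2 was 1.69 ± 0.08 (SD, n = 2). By CPM, which is not per length, this ratio was 2.32, and on full-length coding transcripts 2.11. By mean estimated counts Cacna2d1 came first with 3298, and Cacna2d3 had 2357.

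Cacnb3, a cytoplasmic beta subunit often paired with N-type pores, was the highest of all 40 genes. Cacnb3 (ENSMUSG00000003352.9, chr15:98630840-98644529, plus strand, GRCm38) had 95.9 TPM in replicate 1 and 88.7 TPM in replicate 2, above 91.8% of protein-coding genes. Cacnb1, the skeletal muscle beta subunit that is also made in brain, had 46.5 and 41.9 TPM. The log2 ratio of Cacnb3 over Cacnb1 was 1.05 ± 0.03 (SD, n = 2). It was 0.79 by CPM, which is not per length, and 1.18 on full-length coding transcripts.

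Cacnb4, the gene of the lethargic mouse, had 9.00 TPM in replicate 1 and 10.8 TPM in replicate 2, and Cacnb2, the main heart form, had 3.11 and 3.23 TPM. Only 0.09 and 0.07 TPM of Cacnb2 lay on full-length coding transcripts. All 3 pairs of neighbours among the beta subunits were separate. Cacnb3 carried 61.7 ± 0.51% of the summed beta level and Cacnb2 2.12 ± 0.16% (SD, n = 2).

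Cacnb3 has RefSeq start sites 2439 bases apart that lie in windows of different base composition. The transcript Cacnb3-202 carried 90.1% of the gene's TPM in replicate 1 and 91.1% in replicate 2, and Cacnb3-201 carried 9.94% and 8.87%. The RefSeq promoter windows on GRCm38, 250 bases before to 50 after the start, are shown 5′ to 3′ on the plus strand because this gene leads the family; capitals mark CG dinucleotides.
Cacnb3 upstream window, chr15:98632078-98632377: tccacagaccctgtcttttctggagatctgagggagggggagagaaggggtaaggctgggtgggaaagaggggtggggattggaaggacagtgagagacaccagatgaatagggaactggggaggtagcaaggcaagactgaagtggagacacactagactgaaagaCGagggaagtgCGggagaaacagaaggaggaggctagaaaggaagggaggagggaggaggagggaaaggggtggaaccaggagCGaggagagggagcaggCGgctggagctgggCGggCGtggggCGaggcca
Cacnb3 downstream window, chr15:98634517-98634816: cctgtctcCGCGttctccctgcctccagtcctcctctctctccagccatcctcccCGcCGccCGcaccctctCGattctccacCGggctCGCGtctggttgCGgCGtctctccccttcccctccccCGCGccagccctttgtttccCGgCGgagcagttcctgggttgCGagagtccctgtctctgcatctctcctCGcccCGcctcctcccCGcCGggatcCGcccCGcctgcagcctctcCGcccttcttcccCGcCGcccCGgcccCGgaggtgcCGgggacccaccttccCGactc

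The upstream window holds 7 CG dinucleotides, an observed over expected ratio of 0.39, and the downstream one 29, a ratio of 0.89. The GENCODE M21 start of Cacnb3-202 lies 48 bases after the RefSeq start of the upstream window, and that of Cacnb3-201 falls on the start of the downstream window. The more abundant transcript thus belonged to the window with fewer CG dinucleotides. The deposited lengths of both transcripts, 2670 and 2819 bases, differ from those in M21, so their starts in the authors' annotation may differ.

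Among 30 channel genes with a RefSeq promoter window, 53.3% had a CG-rich one, against 36.0% of the 27025 genes in the table. CG-rich meant a GC content of at least 50% and an observed over expected CG ratio of at least 0.6 in any window of the gene. By window the shares were 41.5% of 41 and 33.5% of 32851. CG-rich windows were found in 14 of 22 detected genes and in 2 of 8 undetected ones. The same split over all genes was not computed, so no trait of the channel genes is read from it. The 27025 genes were not limited to protein-coding ones, unlike the channel genes.

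The gamma subunits divided by function. Cacng1 and Cacng6, the muscle channel subunits, were low: Cacng1 had 0.25 TPM in replicate 1 and 0.29 TPM in replicate 2, and Cacng6 0.13 and 0.11 TPM. The other 6 genes encode TARPs, proteins that carry AMPA-type glutamate receptors to synapses, and all 6 were detected. They summed to 67.5 and 66.4 TPM in replicates 1 and 2.

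Cacng4 dominated the TARPs, with 40.7 TPM in replicate 1 and 40.6 TPM in replicate 2. Cacng2, stargazin, had 8.73 and 8.54 TPM, and Cacng3 had 9.25 and 7.56 TPM. These 2 genes did not separate from each other, and both lay below Cacng4 by more than their intervals. Cacng5 had 3.8 and 4.67 TPM, Cacng7 2.64 and 2.70 TPM, and Cacng8 2.42 and 2.33 TPM. Cacng2 shares exonic bases with the opposite-strand gene A730060N03Rik, at 1.22 TPM in replicate 1 and 0.66 TPM in replicate 2.

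How much of each gene's level came from transcripts that could encode the channel differed between the classes. A transcript was counted as full-length coding when its annotated coding sequence was complete and reached 80% of the longest of its gene. Such transcripts carried 81.6 ± 0.56% of the TPM of the 40 genes (SD, n = 2) and 94.9% of their estimated counts in replicate 1 and 95.1% in replicate 2. Transcripts with partial coding sequences carried 7.03 ± 0.29% of TPM, retained introns 7.65 ± 0.20%, and other processed transcripts 3.34 ± 0.10%.

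In TPM, the pore genes lost more than the auxiliary genes. Full-length coding transcripts of the calcium pores summed to 28.1 and 27.9 TPM in replicates 1 and 2, and those of the sodium pores to 60.9 and 58.7 TPM. For the calcium beta class the sums were 146 and 136 TPM, and for the sodium beta class 83.5 and 79.8 TPM. On this scale the log2 ratio of pore over auxiliary was -3.18 for calcium channels and -0.44 for sodium channels. By estimated counts the sodium classes were close. Full-length coding transcripts held 93.4% and 93.2% of sodium pore counts in replicates 1 and 2, and 94.8% and 95.8% of sodium beta counts. For calcium channels they held 87.9% and 89.1% of pore counts and 98.0% of auxiliary counts in each library. Such shares also depend on which transcripts are annotated for each gene.

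Of the detected pore genes, Cacna1a had the lowest full-length share. Its full-length coding transcripts had 2.07 TPM in replicate 1 and 2.25 TPM in replicate 2, 12.2 ± 1.49% of the gene's TPM (SD, n = 2) but 51.1% and 55.3% of its counts. The rest lay on short retained-intron and processed transcripts, the highest of them by mean Cacna1a-203 with 4.90 TPM in replicate 1 and 3.0 TPM in replicate 2 from 50.4 and 36.5 counts. By full-length TPM the calcium pores ran Cacna1b, Cacna1h, Cacna1g, Cacna1e, Cacna1c, Cacna1a and Cacna1d. By estimated counts Cacna1b also came first, and Cacna1a was the sixth.

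The sodium pores kept most of their order. Scn3a had 30.9 TPM of full-length coding transcripts in replicate 1 and 29.4 TPM in replicate 2, and Scn2a 13.0 and 11.8 TPM. Scn8a, with 3.95 and 3.86 TPM, stood above Scn1a, with 3.67 and 3.56 TPM. The log2 ratio of Scn3a over Scn1a was then 2.75, and that over Scn2a 1.22. Of Scn3a itself, a partial coding transcript of 365 bases, Scn3a-203, held 15.3 TPM in replicate 1 and 11.9 TPM in replicate 2 from 84.1 and 77.4 counts. In Scn9a a retained intron, Scn9a-204, held 4.83 TPM in replicate 1 and 5.02 TPM in replicate 2.

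Of the auxiliary genes, Cacnb2 stood out. Full-length coding transcripts made up 2.53% of Cacnb2 TPM, and its leading transcript was the retained intron Cacnb2-204 at 1.77 TPM in replicate 1 and 1.89 TPM in replicate 2. Cacna2d3, Cacna2d1, Cacnb3, Cacng2, Cacng5, Cacng7, Cacng8 and Scn2b had 100%. For these genes every annotated transcript was classed as full-length coding, so their share was fixed by the annotation and is no measured result. Cacnb2 had 16 transcripts, 3 of them full-length coding.

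**Figure D3:**
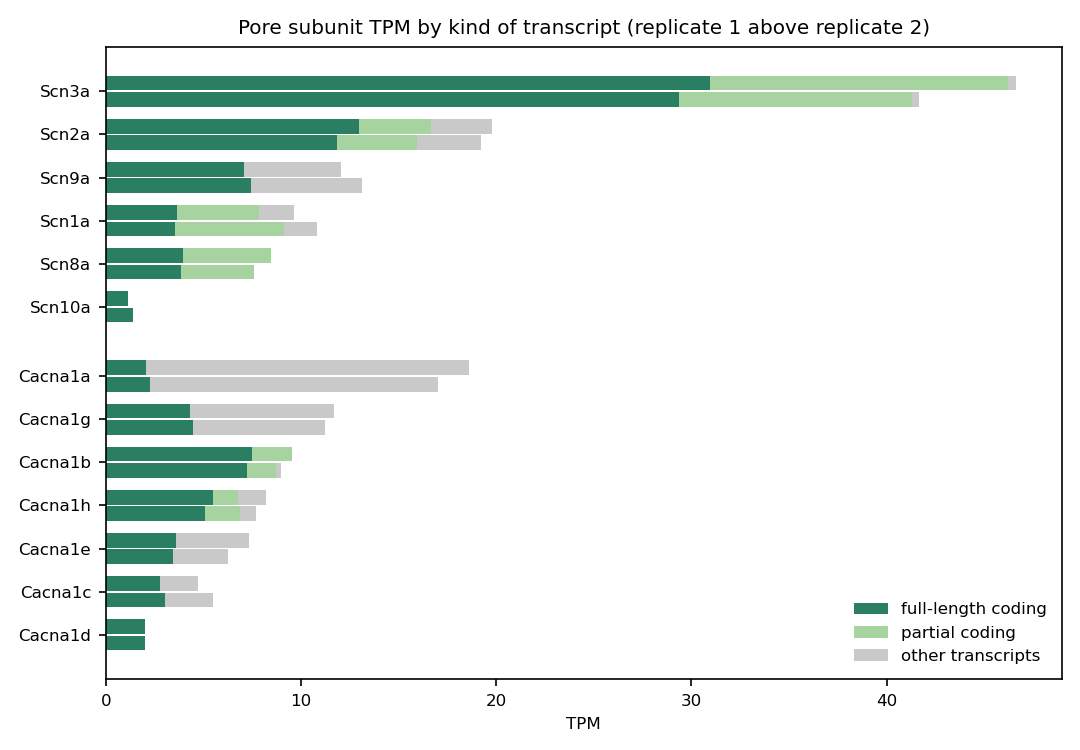
TPM of the detected pore genes in replicate 1 (upper bar) and replicate 2 (lower bar), split into full-length coding, partial coding and other transcripts. Cacna1a has the highest calcium pore bar, of which 2.07 and 2.25 TPM is full-length coding, and Scn3a leads the sodium pores on either scale.

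By class median, the intervals were wider for pores than for alpha2delta subunits. The median width over detected genes was 32.7% of TPM for calcium pores and 23.8% for sodium pores, against 9.33% for alpha2delta and 16.3% for sodium beta subunits. It was 22.8% for calcium beta and 27.4% for gamma subunits. Single genes overlapped between classes. The widths of the 3 detected alpha2delta genes reached 27.7%, and the narrowest detected sodium and calcium pores had 12.3% and 15.7%. Cacnb3 had the narrowest interval at 5.21% and Cacnb2 the widest at 49.4%, and of the genes below detection all but Scn7a had widths of at least 89.3%.

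The replicates were compared gene by gene with a two-sided exact binomial test on rounded counts given the TMM-scaled library sizes, adjusted by Benjamini-Hochberg over 19687 genes. This test compares 2 libraries against counting error only. Of 39 channel genes tested, 4 were called at an adjusted p of at most 0.05, which is 10.3%, against 12.6% of all genes tested. Scn4a had too few counts to be tested. By disjoint intervals 5 of 40 were called, against 6.24% of genes, the same 4 and Cacnb1; 4 were higher in replicate 1, against 3.26%, and 1 in replicate 2, against 2.98%.

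By the binomial test 3 were higher in replicate 1, Cacna2d3, Cacnb3 and Scn3b, against 5.49% of genes called in that direction. Cacna2d3, with 2348 counts in replicate 1 and 2366 in replicate 2, had an exact binomial adjusted p of 2.51e-05 and a log2 TPM + 1 difference of 0.22. Cacnb3 and Scn3b had differences of 0.11 and 0.14 with exact binomial adjusted p of 0.0103 and 0.0343. Cacng5 was the 1 gene higher in replicate 2, against 7.07% of genes, with 282 counts in replicate 1 and 411 in replicate 2, a difference of -0.24 and an exact binomial adjusted p of 0.0343. No detected channel gene differed 2-fold, against 1.47% of genes with a mean of at least 1 TPM.

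Scn3a was not called, with an exact binomial adjusted p of 0.0909. Differences over the 29 detected genes lay between -0.24 and 0.26 on the log2 scale, and 18 of them were higher in replicate 1, 62.1%, against 54.5% of protein-coding genes. By edgeR's exact test at a common coefficient of variation of 6.14%, none of the 39 was called, against 2.02% of genes. That coefficient was estimated over all genes from the difference between these same libraries, so this is no independent measure of spread. The smallest edgeR adjusted p was 0.416, and 2 had an unadjusted p under 0.05, as did 12 by the binomial test.

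**Figure D4:**
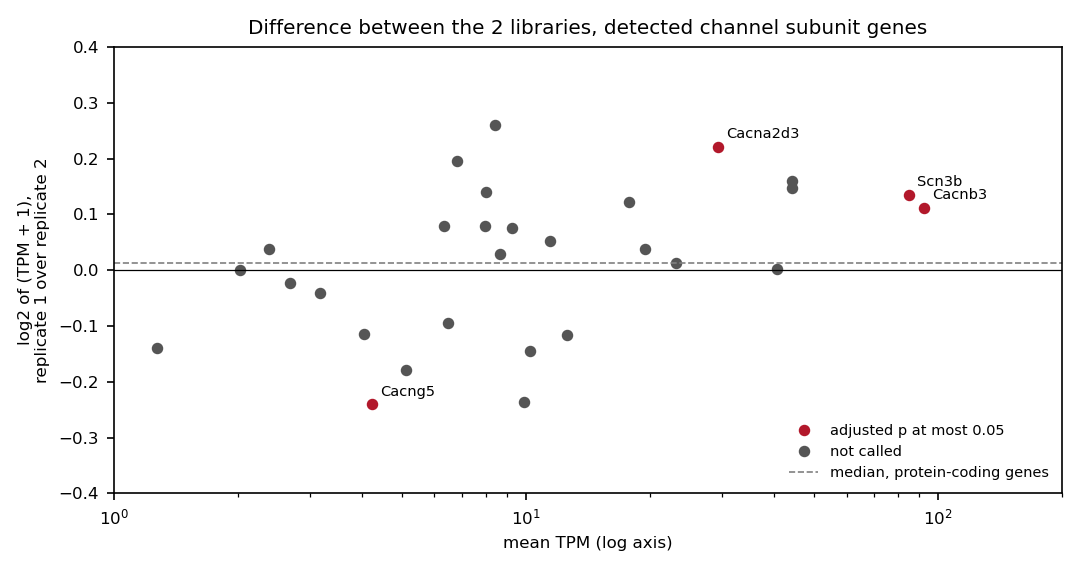
Difference between replicate 1 and replicate 2 in log2 TPM + 1 for the 29 detected channel genes against mean TPM on a log axis; red points passed the exact binomial test. The differences lie between -0.24 and 0.26, and Cacna2d3, Cacnb3 and Scn3b are above 0 while Cacng5 is below.

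Genes that bind or regulate these channels were also present in the tissue, 24 of 25 detected, against 62.2% of all protein-coding genes. These 25 were chosen with earlier results of these data known, so no conclusion is drawn from the higher share. Fgf13, an FGF homologous factor that binds the sodium pore tail, had 131 TPM in replicate 1 and 133 TPM in replicate 2, and the lowest of that list was Fgf11 at 4.20 TPM. Ank3, the ankyrin that anchors sodium channels at the axon initial segment, had 90.2 and 89.6 TPM, while Sptbn4, the spectrin of the same complex, had 1.80 and 2.06 TPM. Rem2, an inhibitor of calcium channels, had 39.1 and 39.8 TPM, and its relative Rem1 was below detection at 0.35 TPM. These lists span wide ranges, with the anchors between 1.93 and 89.9 TPM on average.

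Among the STAC adaptors of L-type channels, Stac2 was highest at 3.83 TPM and Stac3, the muscle form, lowest at 2.05 TPM. In the NALCN leak channel complex, Fam155a was highest at 19.2 TPM and Unc80 lowest at 3.34 TPM. Of the calmodulin genes, whose product binds both kinds of pore, Calm3 was lowest at 246 TPM. Rest, the repressor of neuronal genes including sodium channel genes, had 7.97 TPM in replicate 1 and 8.23 TPM in replicate 2.

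Of these 25 genes, 4 were called between the replicates by the exact binomial test, against 12.6% of all genes tested, so the count is near the background. Ank2 was higher in replicate 1, at 86.0 TPM against 80.8 TPM in replicate 2 (adjusted p of 4.85e-05). Gem, Calm2 and Cachd1 were higher in replicate 2, with exact binomial adjusted p of 0.0365, 1.30e-07 and 5.83e-06. Cachd1, an alpha2delta-like protein, had 14.0 TPM in replicate 1 and 18.1 TPM in replicate 2.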

How the data were processed

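Total RNA of 2 hindbrain libraries was sequenced by the authors. Per the texts deposited with the samples, gene and transcript quantifications came from transcriptome alignments on mm10 (GRCm38) with GENCODE M4; the aligner, the quantification program, the strand setting and the level of the intervals are not stated there. The authors deposited estimated counts, TPM and FPKM, the last 2 normalized per length and depth. The authors also deposited interval bounds of the TPM signal, and each transcript's percent of its gene's TPM.

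Symbols, gene types, exons and coding lengths were taken from GENCODE M21 by Ensembl identifier, which matched 42462 of 43346 genes, and the promoter windows from RefSeq (GRCm38.p6). Of 223 transcripts of the 40 genes, 201 had the same length in M21 and 3 had no M21 entry. Counts were whole, within 0.005, for 30 of the 40 genes, so fragments shared between genes could bear on the other 10, and 11 share exonic bases with another annotated gene.

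The choice by symbol, the roles, the partner lists and the markers were made with earlier results of these data known. No measured value entered the choice by symbol. The rule was to name every one of the 40 genes, and of each other list the highest, the lowest and any gene called between the libraries; some genes and sequences are not reported here by name, though sums and counts include them. Counts were rounded, and genes reaching 10 counts over both libraries were tested with exact binomial tests at an adjusted p of 0.05 (SciPy 1.17.1), given TMM library sizes from edgeR 4.0.16 in R 4.3.3. The procedure was first tested on simulated data. Alternatives were the scaling (DESeq2 1.42.0 size factors or totals), no count filter, intervals, a 2-fold difference, edgeR's exact test, other units, pseudocounts of 1 and 0.1, detection at 0.5 or 2 TPM, and each library alone. The restriction to full-length coding transcripts was added after seeing the data. Counting tests cover counting error only. Interval widths did not follow counts alone: Cacna1b had 1586.5 mean counts and a width of 42.2% of TPM, Cacng2 1051.7 and 11.8%. Each interval belongs to 1 library and does not measure spread between replicates.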

Additional observations from a re-analysis of the deposited data

How the results depend on the processing

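No paired analysis was possible because there is 1 group. The count of detected genes ranged from 28 to 30 over its alternatives. Using CPM, which is not per length, the log2 ratios became 1.26 for Scn3a over Scn2a, 2.47 over Scn8a, 2.80 over Scn1a, 0.73 for sodium pore over beta, -1.66 for calcium pore over auxiliary, 1.62 for Cav2 over Cav1 and 0.90 for Cav2 over Cav3. With full-length coding transcripts only, an alternative chosen after seeing the data, they were 2.67 for Scn3a over Scn8a, 2.75 over Scn1a, -0.44 for sodium pore over beta, which turned the sign, -3.18 for calcium pore over auxiliary, 1.23 for Cav2 over Cav1 and 0.35 for Cav2 over Cav3. Smaller moves beyond 1 SD came from FPKM (2.25 for Scn3a over Scn8a, -2.15 for calcium pore over auxiliary), from posterior mean TPM (2.30, -2.06, and 0.68 for Cav2 over Cav3) and from a pseudocount of 0.1 (2.45 for Scn3a over Scn8a, -2.18 for calcium pore over auxiliary). With that pseudocount the median log2 level of the 40 genes was 2.70, against 2.89.

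With 1 library at a time the log2 ratios were 1.08 to 1.2 for Scn3a over Scn2a, 2.31 to 2.33 over Scn8a, 1.85 to 2.16 over Scn1a, -0.0092 (replicate 1 alone) to 0.0547 for sodium pore over beta, 1.92 to 2.20 for Cav2 over Cav1 and 0.72 to 0.78 for Cav2 over Cav3. The median log2 level was 2.85 to 2.88. Of the replicate calls, 4 were made under the scaling and filter alternatives, 5 by intervals, and 0 each by a 2-fold difference and by edgeR's exact test, whose common spread was estimated from the same libraries. The log2 ratio of Cacna2d1 over Cacna2d2 was 1.57 by posterior mean TPM and 1.82 with a pseudocount of 0.1. Transcripts annotated as protein coding carried 88.6% of TPM, 88.4 to 88.8% by library, and 95.9% of estimated counts.

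Depth limits the genes below detection most: Scn4a, Cacna1f, Cacng6, Cacna1s, Cacng1 and Scn11a had 1 to 14 counts per library. With 2 libraries an SD rests on 1 difference.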
